A study of Homo sapiens with 24 samples.

Results

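The genes described here are 9 genes of the NRF2 pathway, namely NFE2L2, KEAP1, HMOX1, NQO1, GCLC, GCLM, TXNRD1, SRXN1 and OSGIN1. They were chosen by name, as the array probes whose RefSeq accession belongs to 1 of these genes. All 9 of 9 were on the array, with 1 probe each, out of 21743 genes that could be named, and all 9 were among the 21239 genes tested. Only 6 of them, KEAP1, HMOX1, GCLC, GCLM, TXNRD1 and SRXN1, were well above background on all 24 arrays.

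RNA was measured on 24 single-color arrays, 3 for each of 8 groups, from aggregates of LUHMES cells. LUHMES is a human mesencephalic line, conditionally immortalized with a v-myc gene that tetracycline switches off, and it differentiates into neurons with dopaminergic features. The groups were the solvent DMSO, 50 nM rotenone for 12 h, 50 nM rotenone for 24 h and 100 nM rotenone for 24 h, each collected on day 8 and on day 15 of differentiation. Rotenone, an inhibitor of complex I of the mitochondrial respiratory chain, was added on day 7. The samples of day 8 were taken right at the end of the exposure, and those of day 15 after the compound had been washed out and the aggregates had been kept for 7 further days. All groups were cultured in differentiation medium with cAMP, GDNF, tetracycline and N2 on a shaker. The DMSO wells received the amount of solvent that goes with 100 nM rotenone, and the labels give no duration for them. All samples come from 1 cell line. The replicates were wells, with each replicate number on its own slide. The p values therefore measure the spread between wells together with the slide differences that remain after correction.

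NRF2, the protein of NFE2L2, is a transcription factor of the defence against oxidants and electrophiles. In unstressed cells KEAP1 binds it and hands it to a CUL3 ubiquitin ligase for degradation. When cysteines of KEAP1 are oxidized or modified, NRF2 builds up, pairs with small MAF proteins and binds antioxidant response elements in the promoters of genes for glutathione synthesis, thioredoxin reduction, quinone reduction and heme breakdown. Its activity is therefore set largely at the protein level, which an RNA array does not measure.

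The promoter letters are shown because they are the feature that would link these genes to NRF2 binding. The core letters TGACNNNGC of the antioxidant response element were searched on both strands of the RefSeq promoter windows of GRCh38.p14, which hold 250 bases before and 50 bases after a transcript start. Of the 9 genes, 8 had a window (all but HMOX1), with 11 windows in all. The core was in 4 of these 11 windows, those of GCLM, TXNRD1 and KEAP1, against 13.3% of all 35116 windows. The stricter TGACTCAGC, the core with TCA as its middle letters, was in 0 of the 11 windows and in 0.561% of all windows. For each of the 4 windows 1 match is printed 5′ to 3′ on the strand of the gene, with the match in capitals and 20 bases on either side. In GCLM, KEAP1 and the second TXNRD1 window the printed match is the core on the opposite strand. A match in letters is a description and does not show that NRF2 binds there. Bases farther from a start were not searched. A window without a match therefore does not show that its gene lacks the element.
GCLM, chr1:93909436-93909484, minus strand, first matching base at -34 from the start: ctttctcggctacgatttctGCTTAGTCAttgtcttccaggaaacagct
KEAP1, chr19:10502774-10502822, minus strand, at -31: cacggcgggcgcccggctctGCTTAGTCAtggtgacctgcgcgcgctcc
TXNRD1, chr12:104215660-104215708, plus strand, at -99: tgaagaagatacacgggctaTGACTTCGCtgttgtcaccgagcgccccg
TXNRD1, chr12:104286910-104286958, plus strand, at -102: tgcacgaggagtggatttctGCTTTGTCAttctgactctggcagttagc
The 9 matching letters printed for GCLM and KEAP1 were the same, GCTTAGTCA. The same KEAP1 window held a second match, TGACACGGC at -54 on the strand of the gene. The first TXNRD1 window also held a second match, GCTCCGTCA at -8, the core on the opposite strand. The probes of the array are given no position here.

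Levels below are log2 intensities after background correction, quantile normalization and a correction of slide 1 against slides 2 and 3. Replicates 1, 2 and 3 were on slides 1, 2 and 3. Each slide held 1 array of every group at the same place, so that the place on the slide and the group cannot be told apart. Between 48.1% and 80.5% of the spots of an array were well above background, with 64.4% or more on slide 1 and 60.3% or less on slides 2 and 3. The residual SD over genes was 0.453 for replicate 3 of 100 nM rotenone on day 15 and between 0.205 and 0.313 for the other arrays. The scan name of replicate 1 of DMSO on day 15 does not name DMSO, and its group rests on its label. A gene was called at a Benjamini-Hochberg adjusted p under 0.05 in limma over all 21239 genes. A second rule asked for a fold change over 1.5 with an unadjusted p under 0.01. The 3 rotenone groups of a day were compared with the same 3 DMSO arrays, so that these comparisons are not independent of each other. In these bulk samples fewer cells of a type and less RNA per cell cannot be told apart.

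The neuronal markers TUBB3, MAP2, STMN2, DCX, SYT1 and SNAP25 were well above background on all 24 arrays, 6 of 6. Of the dopaminergic markers, 5 of 6 were (TH, DDC, SLC6A3, NR4A2 and PITX3), and SLC18A2, the vesicular monoamine transporter, was so on 3 arrays. None of the 4 astrocyte markers and none of the 4 microglia markers was well above background on all arrays, against 2 of 4 oligodendrocyte markers (MOG and MBP) and 1 of 4 markers of dividing and progenitor cells (NES). SOX2 was well above background on 0 arrays, GFAP on 1, TOP2A on 11 and MKI67 on 15. AIF1, a microglia marker, was not among the genes tested.

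**Figure D1:**
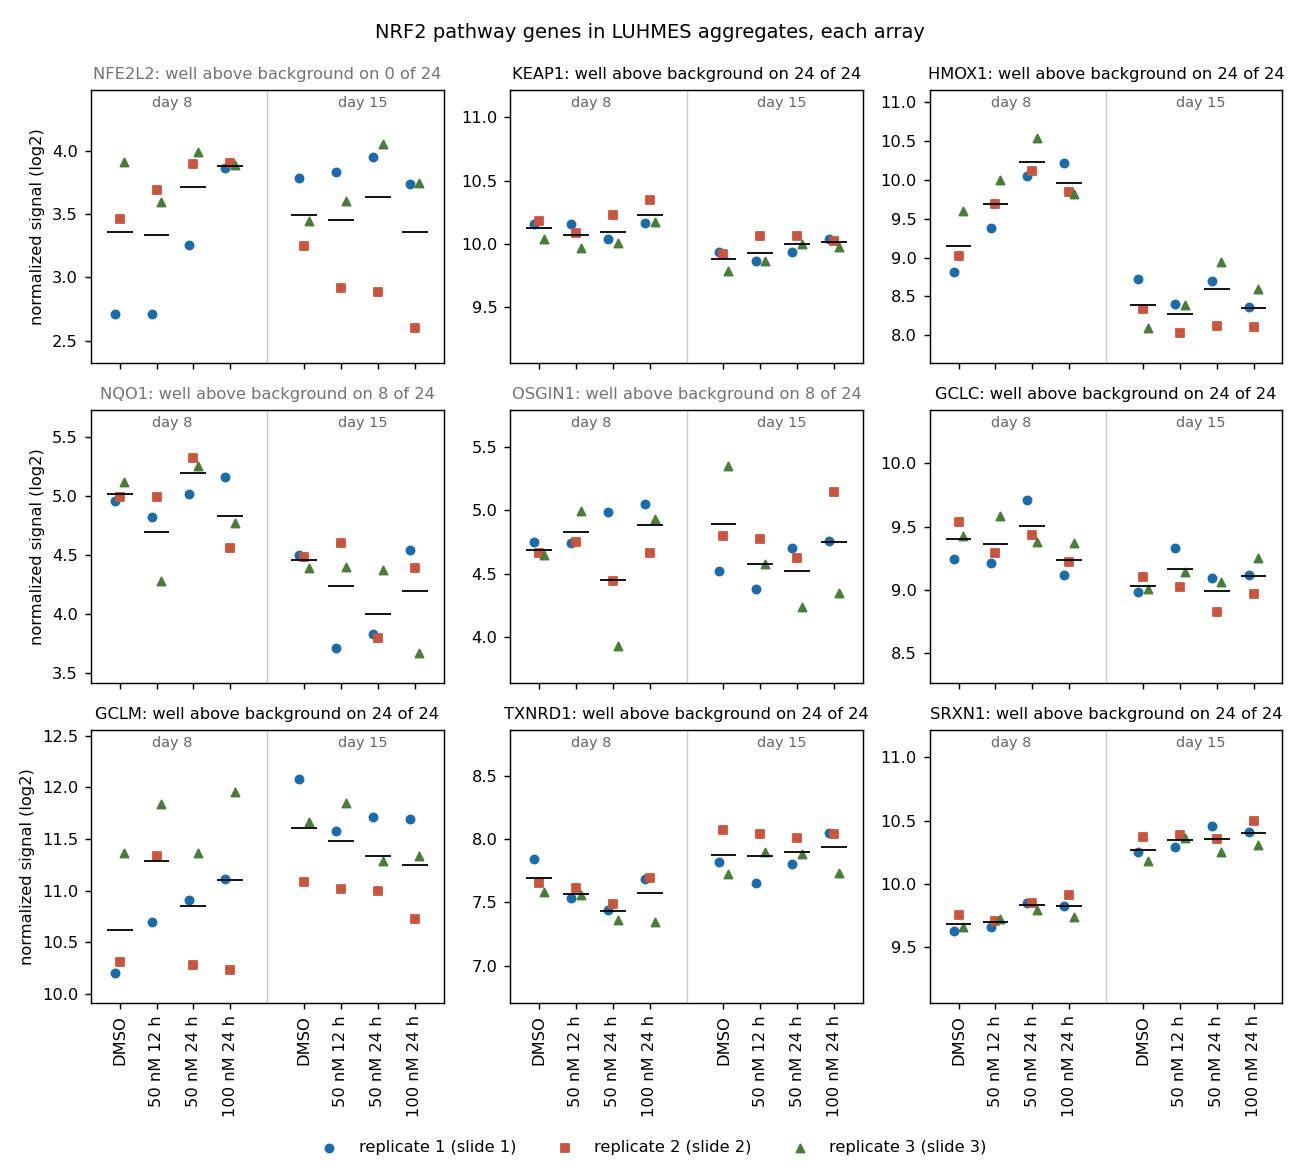
Normalized log2 intensity of the 9 genes on each of the 24 arrays, 1 panel per gene with its own y axis, grouped by day and treatment, with 1 marker shape per replicate (slide) and a black line at the mean of the 3 arrays. HMOX1 sits between 8.81 and 10.54 on day 8 and between 8.02 and 8.95 on day 15, while NFE2L2, NQO1 and OSGIN1 reach at most 5.35, near background.

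NFE2L2, the gene of the pathway's own transcription factor, was not measured above background. Its probe was well above background on 0 of 24 arrays, its raw median intensity was 21 to 75 against a 95th percentile of the negative control spots of 25 to 63, and its intensity was over that percentile of its own array on 11 arrays. Its log2 values ran from 2.60 to 4.05. With 1 probe of 1 spot, a low level and a probe that binds poorly cannot be told apart on this array. The paper reports qPCR results for this gene in LUHMES aggregates, from a re-exposure experiment that these arrays do not cover. No fold change is given in any comparison. NQO1, the quinone reductase often used as a readout of NRF2, was well above background on 8 of 24 arrays, 2 of 3 in DMSO, 50 nM for 12 h and 50 nM for 24 h on day 8. It was so on 1 array each of 100 nM rotenone on day 8 and of DMSO on day 15, and on 0 arrays of the 3 rotenone groups of day 15. OSGIN1, an oxidative stress induced growth inhibitor, passed the same mark on 1 of 3 arrays in each of the 8 groups. Their log2 values ran from 3.67 to 5.32 for NQO1 and from 3.93 to 5.35 for OSGIN1. Both genes lay near the background, and neither passed the adjusted threshold in any comparison.

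KEAP1, the sensor that keeps NRF2 low, was measured with 10 spots per array and had the narrowest range of the 6 measured members, from 9.79 to 10.34 over all 24 arrays. On day 8 it was 10.16, 10.18 and 10.04 in DMSO (replicates 1, 2 and 3) and 10.17, 10.34 and 10.18 with 100 nM rotenone. These groups overlapped, and the difference was 0.10 (95% interval -0.08 to 0.28, adjusted p = 0.612). With 50 nM rotenone for 24 h and for 12 h the differences were -0.04 and -0.06 (adjusted p = 0.91 and 0.85). The 95% intervals of the 3 comparisons lay between -0.24 and 0.28.

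HMOX1, heme oxygenase 1, which opens the heme ring and releases iron, carbon monoxide and biliverdin, was the one member called with rotenone. On day 8 its level in DMSO was 8.81, 9.01 and 9.60 on slides 1, 2 and 3 (mean 9.14 ± 0.41, SD, n = 3). At 50 nM rotenone for 12 h it was 9.38, 9.69 and 10.003 (9.69 ± 0.31). The middle of these values lies above all DMSO values, and the lowest lies inside their range.
With 50 nM rotenone for 24 h the values were 10.06, 10.12 and 10.54 (10.24 ± 0.26). With 100 nM rotenone for 24 h they were 10.22, 9.84 and 9.82 (9.96 ± 0.22). All 6 arrays with 24 h of rotenone lay above the 3 DMSO arrays.
HMOX1 rose with 50 nM rotenone for 24 h by 1.09 on the log2 scale (SE 0.24, 95% interval 0.58 to 1.60, 2.13-fold, adjusted p = 0.00779). With 100 nM rotenone for 24 h it rose by 0.82 (SE 0.24, 95% interval 0.31 to 1.33, 1.76-fold, adjusted p = 0.0391). The 12 h exposure to 50 nM gave a difference of 0.55 (95% interval 0.04 to 1.06, adjusted p = 0.251), which did not pass the threshold.

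Within slides, HMOX1 exceeded DMSO on all 3 slides in each of the 3 day 8 comparisons. The differences on slides 1, 2 and 3 were 1.24, 1.102 and 0.94 with 50 nM for 24 h. They were 0.56, 0.67 and 0.40 with 50 nM for 12 h. With 100 nM they were 1.40, 0.83 and 0.22, the widest spread of the 3 comparisons. The call at 100 nM was lost on leaving out 5 of the 6 arrays in turn (differences 0.62 to 0.89, adjusted p = 0.0609 to 0.208) and was kept without DMSO replicate 3, the highest DMSO value (1.05, adjusted p = 0.0145). At 50 nM for 24 h it was lost without DMSO replicate 1 only (0.89, adjusted p = 0.0575), and on slides 2 and 3 alone neither comparison was called (1.01 at 50 nM for 24 h and 0.51 at 100 nM, adjusted p = 0.215 and 0.648).

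Neither the dose nor the duration gave a called difference in HMOX1. Between 100 nM and 50 nM rotenone for 24 h it was -0.28 (95% interval -0.78 to 0.23, adjusted p = 1), with overlapping groups. Of the 9 members, 0 were called between these doses, and 1, GCLC, had an unadjusted p under 0.05 in limma (11.1%). Over all genes 0% were called and 4.17% had an unadjusted p under 0.05. Between 24 h and 12 h of 50 nM rotenone the HMOX1 difference was 0.55 (95% interval 0.04 to 1.06, adjusted p = 0.407), and the 3 values of 24 h lay above the 3 values of 12 h. Here 0 of the 9 members were called and 1, HMOX1, had an unadjusted p under 0.05 in limma (11.1%). Over all genes 0.537% were called and 10.9% had an unadjusted p under 0.05.

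**Figure D2:**
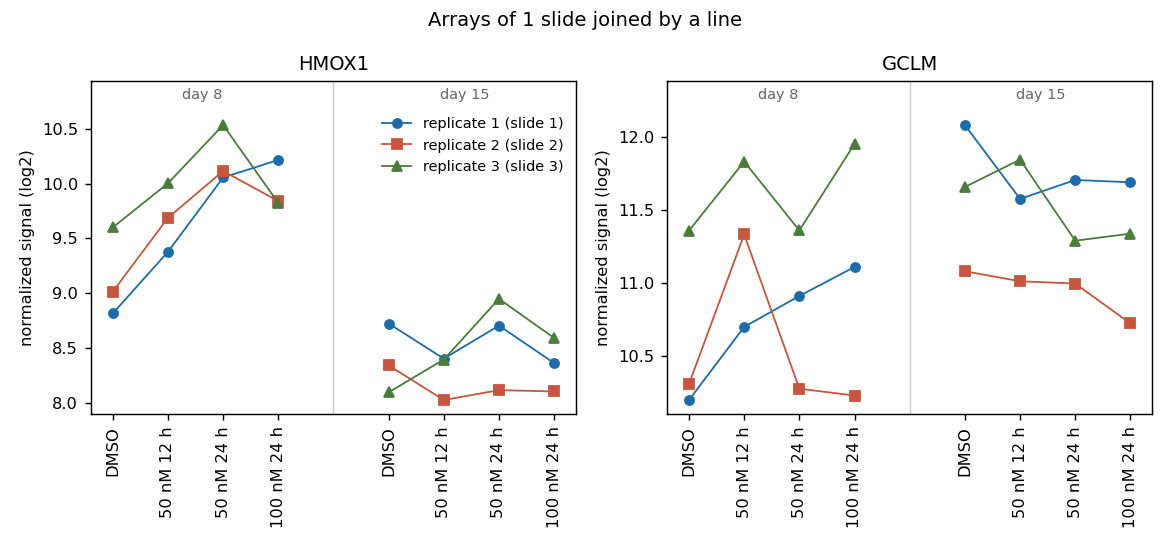
Normalized log2 intensity of HMOX1 and GCLM in each group, with a line joining the arrays of 1 slide (replicate 1, 2 or 3) within a day. On day 8 the HMOX1 lines lie above their own DMSO point in the 3 rotenone groups on all 3 slides, whereas the GCLM lines are set apart by slide, with replicate 2 the lowest in 6 of 8 groups.

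Cell type markers were set beside the HMOX1 values of day 8. The summed level of the 4 markers of dividing and progenitor cells (log2 of the sum of linear values) was 10.45 to 10.77 in DMSO, 11.02 to 11.17 with 100 nM rotenone and 10.48 to 11.003 with 50 nM for 24 h. For the 6 neuronal markers it was 17.26 to 17.48 in DMSO, 17.17 to 17.26 with 100 nM and 17.13 to 17.29 with 50 nM for 24 h. Neither list overlapped with DMSO at 100 nM, the first being higher and the neuronal one lower by a small margin. In the first list NES, a progenitor marker, differed by 0.59 with 100 nM (adjusted p = 0.0608), while the markers of dividing cells MKI67 and TOP2A differed by -0.48 and -0.76 (adjusted p = 0.283 and 0.335). For the 6 dopaminergic markers the sum was 10.52 to 10.55 in DMSO, 10.76 to 10.84 with 100 nM, with no overlap, and 10.45 to 11.02 with 50 nM for 24 h. Of these 10 dividing, progenitor and dopaminergic markers 0 were called with 100 nM or with 50 nM for 24 h. Of the neuronal markers MAP2 was called lower with 100 nM (-0.57, adjusted p = 0.00281) and with 50 nM for 24 h (-0.49, adjusted p = 0.0108). SNAP25 was called lower with 100 nM (-0.30, adjusted p = 0.0407) but not with 50 nM for 24 h (-0.19, adjusted p = 0.24). No other neuronal marker was called with either exposure. For the 4 astrocyte markers the sum was 6.02 to 6.63 in DMSO, 5.97 to 6.14 with 100 nM and 5.75 to 6.14 with 50 nM for 24 h. The part of these changes in the HMOX1 result was not tested.

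GCLC and GCLM are the catalytic and the modifier subunit of glutamate cysteine ligase, the first enzyme of glutathione synthesis. GCLC on day 8 was 9.24, 9.54 and 9.42 in DMSO, and 9.12, 9.22 and 9.37 with 100 nM rotenone. With 50 nM rotenone for 24 h it was 9.71, 9.44 and 9.38. Both rotenone groups overlapped with DMSO, and the differences were -0.16 (95% interval -0.42 to 0.10, adjusted p = 0.547) and 0.11 (95% interval -0.15 to 0.37, adjusted p = 0.759). Between the doses the GCLC values did not overlap, with a difference of -0.27 for 100 nM against 50 nM (95% interval -0.53 to -0.01, adjusted p = 1).

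GCLM differed strongly between slides. On day 8 it was 10.20, 10.31 and 11.36 in DMSO and 10.70, 11.33 and 11.83 with 50 nM rotenone for 12 h. It was 10.91, 10.28 and 11.36 with 50 nM for 24 h and 11.11, 10.23 and 11.96 with 100 nM. Every rotenone group overlapped with DMSO. The differences were 0.67 at 12 h (95% interval -0.25 to 1.58, adjusted p = 0.51), 0.23 with 50 nM for 24 h (-0.69 to 1.14, adjusted p = 0.874) and 0.48 with 100 nM (-0.44 to 1.39, adjusted p = 0.642). Leaving out 1 array in turn gave 0.40 to 1.05 at 12 h (lowest without replicate 3 of that group, highest without its replicate 1), -0.04 to 0.59 with 50 nM for 24 h (lowest without DMSO replicate 1, highest without DMSO replicate 3), and 0.02 to 0.91 with 100 nM (lowest without its replicate 3, highest without its replicate 2). None of these was called. Averaged over the 8 groups, its deviation on slides 1, 2 and 3 was 0.86, -0.89 and 0.03 before the correction of slide 1, and 0.06, -0.45 and 0.39 after it. Within slides the 12 h difference was 0.50, 1.03 and 0.47, above 0 on 3 of 3 slides.

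TXNRD1, the cytosolic thioredoxin reductase, was measured by a probe for 1 of its transcripts. Its day 8 values were 7.84, 7.66 and 7.58 in DMSO, 7.44, 7.49 and 7.36 with 50 nM rotenone for 24 h, and 7.69, 7.69 and 7.34 with 100 nM. The 50 nM values lay below all DMSO values, with a difference of -0.26 (95% interval -0.53 to 0.00, adjusted p = 0.257), and the 100 nM values overlapped with DMSO (-0.12, 95% interval -0.38 to 0.15, adjusted p = 0.707). SRXN1, sulfiredoxin, which restores peroxiredoxins oxidized at their active cysteine, was 9.63, 9.76 and 9.66 in DMSO. It was 9.85, 9.85 and 9.79 with 50 nM for 24 h and 9.83, 9.92 and 9.74 with 100 nM. The 50 nM values lay above all DMSO values and the 100 nM values overlapped with them at the lowest value. Their differences were close, 0.15 in both (95% interval -0.02 to 0.31, adjusted p = 0.327 for 50 nM and 0.324 for 100 nM), and neither passed the threshold. Over the 3 rotenone comparisons of day 8 the 95% intervals lay between -0.53 and 0.15 for TXNRD1 and between -0.15 and 0.31 for SRXN1.

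**Figure D3:**
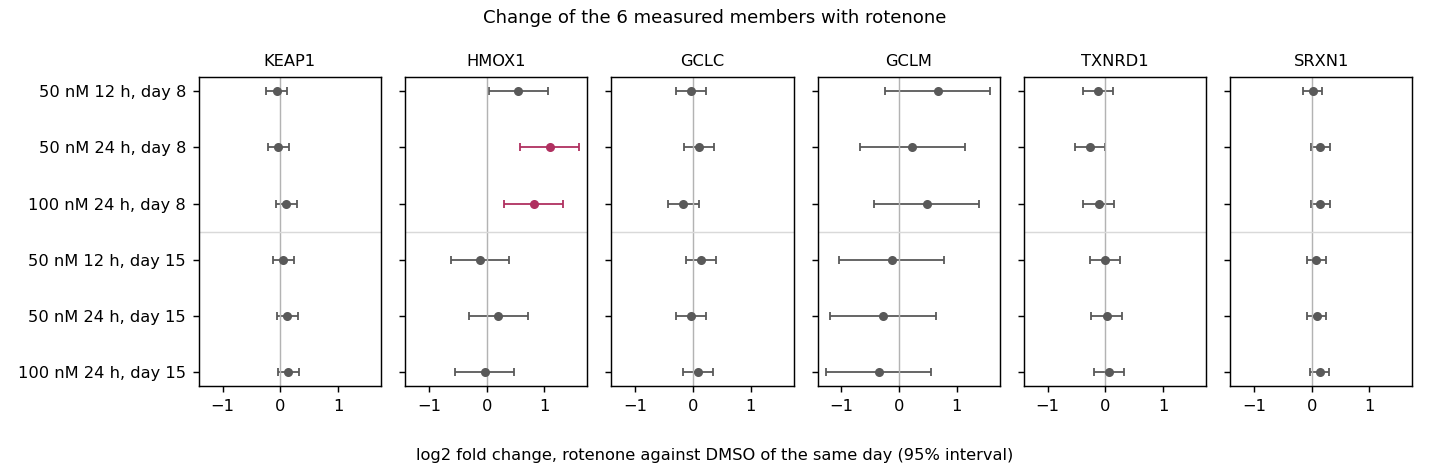
Log2 fold change of rotenone against the DMSO arrays of the same day (x axis) with its 95% interval, for the 6 members well above background on all arrays and the 6 rotenone comparisons, with called values in red. HMOX1 on day 8 at 50 nM for 24 h (1.09) and 100 nM (0.82) are the called values, and the GCLM intervals are the widest.

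Counted over the 9 members on day 8, 1 was called with 100 nM rotenone, where 9.48% of all genes were called, and the second rule also called 1 (HMOX1), against 3.81% of all genes. Both rules called 1, HMOX1, with 50 nM for 24 h, against 8.02% and 3.2% of all genes. Both rules called 0 with 50 nM for 12 h, and 1 (HMOX1) had an unadjusted p under 0.05 in limma. All genes gave 5.52% and 2.15% by these rules, and 16.8% with an unadjusted p under 0.05 against 11.1% of the members. A count of 1 in 9 is near the background share. The median difference of the members was 0.15 with 100 nM, 0.15 with 50 nM for 24 h and -0.03 with 50 nM for 12 h, against -0.02, -0.02 and -0.01 over all genes.

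On day 15, 7 days after the wash-out, the HMOX1 values of all groups overlapped. They were 8.72, 8.34 and 8.09 in DMSO and 8.40, 8.02 and 8.39 after 50 nM rotenone for 12 h. They were 8.70, 8.11 and 8.95 after 50 nM for 24 h and 8.36, 8.10 and 8.59 after 100 nM. The differences from DMSO were -0.11, 0.20 and -0.03, with 95% intervals of -0.62 to 0.40, -0.31 to 0.71 and -0.54 to 0.47 (adjusted p = 1, 1 and 0.989). Without DMSO replicate 1, whose scan name does not name DMSO, they were 0.09, 0.41 and 0.17, and without replicate 3 of 100 nM the difference at that dose was -0.16. In each of the 3 comparisons limma called 0 of the 9 members, and 0 had an unadjusted p under 0.05. Of all genes 0% were called in each (0%, 0% and 0%). The share of all genes with an unadjusted p under 0.05 in limma was 3.47% after 50 nM for 12 h. It was 3.28% after 50 nM for 24 h and 7.21% after 100 nM. KEAP1 after 100 nM and after 50 nM for 24 h did not overlap with DMSO, with differences of 0.13 and 0.12 (adjusted p = 0.748 and 1).

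The test of the change between the days compares the rotenone effect of day 15 with that of day 8. For HMOX1 it gave -0.85 with 100 nM rotenone (SE 0.34, 95% interval -1.57 to -0.13, adjusted p = 0.24). With 50 nM for 24 h, a comparison added after the data were seen, it gave -0.89 (SE 0.34, 95% interval -1.61 to -0.17, adjusted p = 0.221). Neither passed the adjusted threshold, so a difference between the days in the rotenone effect on HMOX1 was not called. Limma called 0 members in both tests, 1 member (HMOX1) had an unadjusted p under 0.05 in each (11.1%). Over all genes 2.44% and 2.16% were called, and 14.4% and 13.9% had an unadjusted p under 0.05.

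Between day 8 and day 15 in DMSO 4 of the 9 members were called, 3 lower and 1 higher, where 23.2% of all genes were called. SRXN1 was 9.63, 9.76 and 9.66 on day 8 and 10.25, 10.37 and 10.18 on day 15. It rose by 0.58 (SE 0.08, 1.499-fold, adjusted p = 1.81e-05), by 0.62, 0.61 and 0.52 on slides 1, 2 and 3. With and without rotenone, all 12 arrays of day 15 (10.18 to 10.49) lay above all 12 of day 8 (9.63 to 9.92).
HMOX1 in DMSO fell by 0.76 (SE 0.24, adjusted p = 0.0292), and its values of day 15 lay below those of day 8. On slides 1, 2 and 3 the HMOX1 difference was -0.09, -0.67 and -1.51. GCLC was 8.98, 9.10 and 9.0045 on day 15 and fell by 0.37 (SE 0.13, adjusted p = 0.037). KEAP1 was 9.94, 9.92 and 9.79 on day 15 and fell by 0.25 (SE 0.09, adjusted p = 0.0455).
For all 3 genes the DMSO values of the days did not overlap, nor did those of SRXN1 and of NQO1, which lay near background. The share of all genes without overlap was not computed, here or for the other comparisons. The calls of HMOX1, GCLC and KEAP1 were lost on leaving out 3, 5 and 5 of the 6 arrays in turn (largest adjusted p = 0.168, 0.157 and 0.154), and that of SRXN1 was kept in all. The HMOX1 call was lost without DMSO replicate 3 of day 8 or replicate 2 or 3 of day 15. The GCLC call was kept only without DMSO replicate 1 of day 8, and the KEAP1 call only without DMSO replicate 3 of day 8. Without DMSO replicate 1 of day 15 the called members were HMOX1 and SRXN1.

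For GCLM, the partner subunit of GCLC, the DMSO values were 12.09, 11.08 and 11.66 on day 15, against 10.20, 10.31 and 11.36 on day 8. The groups overlapped, and the difference was 0.99 (95% interval 0.07 to 1.90, adjusted p = 0.116). In a fit with the replicate block instead of the slide 1 correction it was 0.91 (adjusted p = 0.0389), and GCLM was called there, as it was in the values deposited by the authors and without DMSO replicate 3 of day 8 (1.35, adjusted p = 0.0447). On slides 1, 2 and 3 the difference was 1.89, 0.77 and 0.30. TXNRD1 differed by 0.18 between the days (95% interval -0.08 to 0.45, adjusted p = 0.346).
The summed level of the dopaminergic markers was 10.52 to 10.55 in DMSO on day 8 and 9.36 to 9.53 on day 15, and that of the oligodendrocyte markers was 6.79 to 6.93 and 7.10 to 7.26. The dopaminergic markers moved in both directions. TH fell by 2.94 and SLC6A3 fell by 2.07 (adjusted p = 2.24e-08 and 1.35e-05), while NR4A2 and PITX3 rose by 1.57 and 0.46 (adjusted p = 2.35e-07 and 0.0406). Of the 3 oligodendrocyte markers tested 0 were called. The markers of dividing cells TOP2A and MKI67, well above background on 11 and 15 arrays, fell by 2.62 and 0.71 (adjusted p = 0.00012 and 0.0436). The progenitor marker NES was not called (0.40, adjusted p = 0.146). Of the neuronal markers MAP2 fell by 0.46 and SNAP25 rose by 0.29 (adjusted p = 0.0064 and 0.0243), and the others were not called. The part of these markers in the changes of the members was not tested.

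In the order of their 8 group means, neighbouring groups of KEAP1, HMOX1, GCLC and GCLM overlapped in all 7 of 7 pairs. HMOX1 ran from 10.24 (50 nM for 24 h, day 8) through 9.96 (100 nM), 9.69 (50 nM for 12 h) and 9.14 (DMSO) on day 8 to 8.59, 8.39, 8.35 and 8.27 on day 15 (50 nM for 24 h, DMSO, 100 nM and 50 nM for 12 h). Neighbours did not overlap in SRXN1 at 2 of 7 steps. These were the step between the days and the step from 100 nM rotenone to 50 nM for 12 h on day 8. In TXNRD1 the lowest group, 50 nM for 24 h on day 8, was apart from its neighbour, at 1 of 7 steps. Over the 8 group means HMOX1 correlated with TXNRD1 at -0.98 and with KEAP1 at 0.79, GCLC at 0.80, GCLM at -0.60 and SRXN1 at -0.84. These are descriptions over 8 means that share 3 slides and 2 days. Genes with 8 group means like those of HMOX1 were sought among 12883 others, well above background and without a missing value on all arrays. The most alike were ISOC2 (r = 0.995), POPDC1 (r = 0.995) and MYO1E (r = 0.993). With 50 nM for 24 h on day 8 they differed from DMSO by 0.38, 0.42 and 0.52 (adjusted p = 0.0389, 0.143 and 0.209).

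Of 9 regulators and partners (CUL3, RBX1, SQSTM1, BTRC, GSK3B, BACH1, MAFF, MAFG and MAFK), all tested and measured, 0 rose and 1 fell with 100 nM rotenone on day 8. That is 11.1% called against 9.48% of all genes, and 33.3% of the regulators had an unadjusted p under 0.05 against 20.6% of all genes. The gene that fell was CUL3, the scaffold of the ligase that degrades NRF2 (-0.41, SE 0.11, adjusted p = 0.0204). Its 2 probes differed, by -0.75 and -0.07, so the change rests on 1 of them, and the call was lost without DMSO replicate 1 or 2 or replicate 1 or 3 of 100 nM (adjusted p up to 0.138). None of the 9 was called with 50 nM for 24 h (0 in limma, 2 with an unadjusted p under 0.05, or 22.2% against 19.6% of all genes). The shorter exposure to 50 nM gave 1 call among the 9 (11.1% against 5.52% of all genes), a fall of GSK3B, a kinase that marks NRF2 for degradation apart from KEAP1 (-0.34, adjusted p = 0.0153). This call was lost without DMSO replicate 1 or 2 or replicate 3 of that group (adjusted p up to 0.0769).
Of 7 paralogs of the members (NFE2L1, NFE2L3, HMOX2, NQO2, TXNRD2, TXNRD3 and OSGIN2), 0 were called with 100 nM rotenone, where 9.48% of all genes were, and 2 had an unadjusted p under 0.05 in limma (28.6% against 20.6% of all genes). The smallest p among them was that of NQO2 (0.27, adjusted p = 0.181), whose 2 probes gave -0.06 and 0.60. HMOX2, the heme oxygenase that cells express without stress, differed by 0.10 with 100 nM and by -0.08 with 50 nM for 24 h, and was not called. NFE2L1, a relative of NFE2L2, fell with 50 nM for 12 h (-0.32, adjusted p = 0.0144), a call lost without DMSO replicate 2 or replicate 1 of that group (adjusted p up to 0.0769). With 50 nM for 24 h 0 of the 7 paralogs were called and 1 had an unadjusted p under 0.05 in limma (14.3% against 19.6% of all genes).

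Of 35 further NRF2 targets, 34 were tested. Of these 34, 27 were well above background on all arrays, against 12903 of all 21239 genes tested. The targets were chosen with earlier results of these data known. With 100 nM rotenone 2 rose and 2 fell (5.88% each way, against 4.07% of all genes up and 5.41% down), and their median difference was 0.01 against -0.02 over all genes. In the glutathione and thioredoxin list 1 of 10 was called, GSTM3, a glutathione transferase. It was 11.65, 11.59 and 11.72 in DMSO, 12.33, 12.16 and 12.38 with 50 nM for 24 h and 12.26, 12.15 and 12.26 with 100 nM. Both rotenone groups lay above DMSO, with a rise of 0.57 with 100 nM (SE 0.11, adjusted p = 0.00163) and of 0.63 with 50 nM for 24 h (adjusted p = 0.000835).
In the heme and iron list 1 of 6 was called with 100 nM, BLVRB, biliverdin reductase B. It was 7.26, 7.37 and 7.54 in DMSO, 8.32, 8.14 and 8.38 with 50 nM for 24 h and 7.99, 7.94 and 8.22 with 100 nM. BLVRB thus rose in both groups without overlap, by 0.66 with 100 nM (SE 0.19, adjusted p = 0.0318) and by 0.89 with 50 nM for 24 h (adjusted p = 0.00546). At 100 nM the call of BLVRB was kept without DMSO replicate 3 and lost without any of the other 5 arrays (adjusted p up to 0.129).
In the NADPH supply list 1 of 6 was called, IDH1, the cytosolic isocitrate dehydrogenase. It was 12.53, 12.34 and 12.42 in DMSO, 11.90, 11.68 and 11.79 with 50 nM for 12 h and 12.05, 12.12 and 12.01 with 100 nM. IDH1 fell by 0.37 with 100 nM (adjusted p = 0.0183) and by 0.64 with 50 nM for 12 h (adjusted p = 0.000493). The call of IDH1 at 100 nM was lost without DMSO replicate 1 or replicate 1 or 3 of 100 nM (adjusted p up to 0.0986).
In the list of conjugation, reduction and export 1 of 12 tested was called, AKR1C3, an aldo-keto reductase with near-identical relatives that its probe may also catch. It was 6.66, 6.43 and 6.32 in DMSO and 6.07, 6.09 and 5.62 with 100 nM, and fell by 0.54 (SE 0.12, adjusted p = 0.00569). Without DMSO replicate 1 the AKR1C3 difference was -0.42 (adjusted p = 0.0502).

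With 50 nM rotenone for 24 h 5 of the 34 further targets rose (14.7%) and 0 fell, against 3.66% of all genes up and 4.36% down. As given above, the targets were more often well above background than all genes, so these shares are not from like genes. Besides GSTM3 and BLVRB these were PIR, pirin (0.64, adjusted p = 0.000932), BLVRA, biliverdin reductase A (0.43, adjusted p = 0.0368), and TXN, thioredoxin (0.32, adjusted p = 0.0491). The calls of BLVRA and TXN were lost on leaving out any 1 of the 6 arrays (adjusted p up to 0.14 and 0.155). TXN, PIR and BLVRA, like GSK3B, NFE2L1, HMOX2 and CBR3, were named after their values were seen. Between 24 h and 12 h of 50 nM, PIR was the 1 target called (0.72, adjusted p = 0.0039). Its values were 8.87, 8.98 and 8.91 at 24 h, 8.16, 8.37 and 8.09 at 12 h and 8.35, 8.23 and 8.25 in DMSO, so that PIR was apart from both at 24 h.
At 50 nM for 12 h 0 of the 34 rose and 2 fell (5.88%), IDH1 and CBR3, against 2.66% of all genes up and 2.85% down. CBR3 was not well above background on any array of both groups and gets no fold. The share of the 34 targets with an unadjusted p under 0.05 was 32.4% with 100 nM and 32.4% with 50 nM for 24 h, against 20.6% and 19.6% of all genes, and 17.6% against 16.8% with 50 nM for 12 h. On day 15, 0 of the 34 targets, of the 9 regulators and of the 7 paralogs were called by limma in any of the 3 rotenone comparisons. After 100 nM 3 targets (8.82%), 2 regulators (22.2%) and 0 paralogs had an unadjusted p under 0.05, against 7.21% of all genes. After 50 nM for 24 h these were 2 targets (5.88%), 1 regulator (11.1%) and 0 paralogs, against 3.28% of all genes. After 50 nM for 12 h they were 1 target (2.94%), 0 regulators and 0 paralogs, against 3.47% of all genes.

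**Figure D4:**
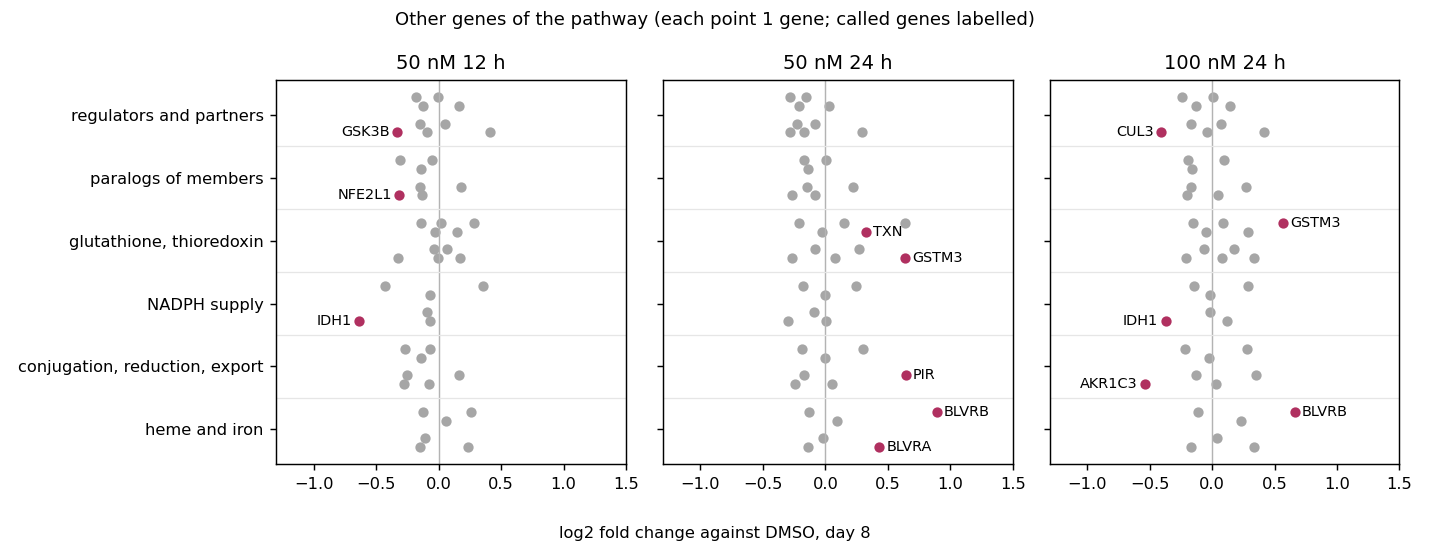
Log2 fold change against DMSO on day 8 (x axis) of the genes of each further list (rows) that were well above background on all 3 arrays of at least 1 compared group, in 1 panel per rotenone group, with 1 point per gene and called genes in red with their names. GSTM3 (0.57 and 0.63) and BLVRB (0.66 and 0.89) lie to the right with 100 nM and with 50 nM for 24 h, and IDH1 (-0.64) is the lowest called gene with 50 nM for 12 h.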

How the data were processed

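Aggregates of LUHMES cells were measured on 24 single-color Agilent arrays of 62976 spots. The deposited files hold spot intensities as the scanner software gave them (Feature Extraction 12.0.0.7 for slide 2 and 11.5.1.1 for slides 1 and 3), with local background and flags. A further deposited file gives log2 values that the authors had normalized, and it served as an alternative. It holds 8 of the 9 members and has column medians of 6.42 to 6.64.

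The processing followed the methods of the study where they state a step. Normexp with an offset of 0 (limma 3.58.1, R 4.3.3, data.table version 1.17.8) removed the background from the median intensities, which were then quantile normalized. Slide 1, which the labels describe as repeated, was corrected against slides 2 and 3 by parametric ComBat with the groups as covariates. The ComBat code was written anew and checked on simulated data. On 3 or more arrays a spot had to be brighter than the negative controls (308 spots), at 1.1 times their 95th percentile. Control spots were left out, flagged values set to missing, and spots and probes averaged per gene. Accessions were matched to RefSeq GRCh38.p14, which named 30275 of 50599 probes. Python 3.11.15 with matplotlib 3.10.9 drew the figures.

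The comparisons used limma's lmFit and eBayes on the 24 arrays together (16 residual degrees of freedom, 2.372 prior). Tests are two-sided, and all p values, unadjusted ones included, are limma's, adjusted over 21239 genes. The number of arrays limits the precision. Arrays of 1 replicate number deviated together from their group means. The correlation was 0.171 or more in all 84 pairs of the same number (median 0.458), against a median of -0.354 in 168 pairs of different numbers, and the labels tie replicate 1 to a repeated slide, so that the numbers pair the samples.

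The members and lists were chosen with earlier results of these data known. Of each further list the text names the genes called with 100 nM rotenone on day 8, up to 6 by smallest p, or the 1 with the smallest p. Genes of like pattern were the 3 with the highest correlation of group means with HMOX1. The same was not done for NFE2L2, which was not above background. For the tested list genes and the comparison of the 50 nM effect between the days, alternatives were chosen after seeing the data.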

Additional observations from a re-analysis of the deposited data

Results flagged for a closer look

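For 3 genes of the further target lists the rotenone effect differed between day 15 and day 8 by limma's test of the difference. All 3 had been named after their change on day 8 was known. The change of AKR1C3 with 100 nM rotenone was higher on day 15 than on day 8 (log2 difference 0.78, SE 0.17, adjusted p = 0.0157). Its values were 6.66, 6.43 and 6.32 in DMSO and 6.07, 6.09 and 5.62 with 100 nM on day 8, and 9.27, 9.34 and 9.44 in DMSO and 9.60, 9.51 and 9.65 after 100 nM on day 15. Without DMSO replicate 1 of day 8 the AKR1C3 difference was 0.66 (adjusted p = 0.0545). For GSTM3 the change with 50 nM for 24 h was lower on day 15 (-0.64, SE 0.15, adjusted p = 0.0316), and for PIR likewise (-0.64, SE 0.15, adjusted p = 0.0375). The GSTM3 call was lost on leaving out 8 of the 12 arrays in turn (adjusted p up to 0.0847) and the PIR call on leaving out 9 of 12 (adjusted p up to 0.117). With groups of 3 arrays no search for single far samples was made.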

How the results depend on the processing

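Each of 13 alternatives, and the removal of each array, was run against the main processing. Of these the processed signal with scaling to the 75th percentile changed signal, background correction and normalization together, and the replicate block took the place of ComBat. With 100 nM rotenone on day 8, 1 member (HMOX1) was called, against 0 with no batch correction (0.78, adjusted p = 0.132), 0 on slides 2 and 3 only and 0 with only the compared groups in the fit (0.82, adjusted p = 0.101). Leaving out 1 array gave 0 to 1. For 50 nM for 24 h the count went from 1 to 0 on slides 2 and 3 only and to 0 with only the compared groups (HMOX1 1.09, adjusted p = 0.0628), and leaving out 1 array gave 0 to 1. Between the days in DMSO 4 members were called, against 1 with no batch correction, 1 on slides 2 and 3 only and 2 with only the compared groups (NQO1 and SRXN1). The count was 5 with the processed signal (TXNRD1, adjusted p = 0.0373, and OSGIN1 added, GCLC lost), 5 in the deposited log2 values (GCLM added, adjusted p = 0.0294) and 5 with the replicate block, and 1 to 3 on leaving out 1 array. The other counts of called members stayed at 0. With the replicate block HMOX1 was called in the same comparisons (0.78 with 100 nM, adjusted p = 0.0296, and 1.08 with 50 nM for 24 h, adjusted p = 0.00476), GCLM was added between the days, and the calls of TXN and of PIR between the days were lost (adjusted p = 0.0647 and 0.0607). It changed no other call of a member. Over all genes 2014 were called with 100 nM on day 8, against 633 with no batch correction, 295 on slides 2 and 3 only and 808 with only the compared groups.

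Signs turned only in differences that were not called. On slides 2 and 3 only they were 0.0096 for KEAP1, -0.088 for GCLC and -0.035 for GCLM with 50 nM for 24 h on day 8, and 0.14 for HMOX1 and -0.024 for TXNRD1 with 100 nM on day 15. Scaling to the 75th percentile gave 0.0029 for KEAP1 with 50 nM for 24 h on day 8, the processed signal with its own scaling gave -0.021 for GCLC with 100 nM on day 15, and the brightest probe gave -0.061 for NQO2. Leaving out 1 array gave -0.19 to 0.001 for TXNRD1 with 100 nM on day 8. With 50 nM for 24 h on day 8 it gave -0.10 to 0.0082 for KEAP1, -0.015 to 0.185 for GCLC and -0.037 to 0.59 for GCLM. With 100 nM on day 15 it gave -0.19 to 0.17 for HMOX1 and -0.016 to 0.17 for TXNRD1, and with 50 nM for 12 h on day 15 -0.26 to 0.094 for HMOX1. Of 1113 values of single genes over all alternatives, 955 kept their direction and their side of the threshold, 135 lost a call, 4 gained one and 19 turned. The causes were not tested. Signal over background limits NFE2L2, NQO1 and OSGIN1.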

Other observations

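Several genes of the further lists differed between day 15 and day 8 in DMSO, where 23.2% of all genes were called. They were named after their values were seen. Of the 34 further targets 7 rose and 5 fell. AKR1C3 rose by 2.88 (adjusted p = 2.91e-12), BLVRB by 1.61 (adjusted p = 3.53e-06) and SLC7A11, the cystine transporter that feeds glutathione synthesis, by 0.96 (adjusted p = 0.000279). MGST1, a microsomal glutathione transferase, fell by 1.16 (adjusted p = 0.00823) and PRDX1, a peroxiredoxin, by 0.55 (adjusted p = 0.000325). Among the paralogs HMOX2 rose by 0.87 (adjusted p = 4.24e-08), from 12.09, 12.02 and 12.04 on day 8 to 12.96, 12.91 and 12.89 on day 15, while HMOX1 fell over the same days. NFE2L1 rose by 0.35 (adjusted p = 0.00155) and TXNRD3 fell by 0.49 (adjusted p = 0.0134). Of the 9 regulators MAFG rose by 0.42 (adjusted p = 0.00254).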
